A study of Rattus norvegicus with 8 samples.

Results

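Macrophages that carry Fn1, Vcan or Fcnb transcripts without the complement C1q signature of microglia or the Fabp4 signature of a further macrophage population were described in the injured rat spinal cord. Blood monocytes enter a contused cord during the first days, take up debris and turn into macrophages. Fn1 encodes fibronectin and Vcan encodes versican, a large proteoglycan of the extracellular matrix, and both are transcribed by monocytes. Fcnb encodes a ficolin, a lectin of granulocytes and monocytes that can start the complement cascade. S100a4 and S100a6 encode small calcium-binding proteins of migrating myeloid cells.

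The cells were chosen by a gate on raw counts of unique molecular identifiers (UMIs), each of which marks 1 captured transcript. A member had at least 1000 UMIs, at most 10% mitochondrial UMIs, at least 3 UMIs of Tyrobp, an adaptor of myeloid receptors, and at least 5 UMIs of Fn1, Vcan and Fcnb together. It also had fewer than 10 UMIs of C1qa, C1qb and C1qc, at most 1 of Fabp4, fewer than 5 of the chemokine Cxcl1, at most 1 of the proliferation genes Mki67 and Top2a, at most 1 of the collagens Col1a1 and Col3a1, fewer than 10 of the class II gene RT1-Db1, and under 12% of its UMIs from the neutrophil genes S100a8 and S100a9. The gate took 1994 of the 57296 cells that met the UMI and mitochondrial limits (3.48%), out of 68658 deposited cells. Levels of these 16 genes in members therefore follow from the choice. The lists and fits below still hold some of them, such as the neutrophil genes and the collagens, and their values there carry that choice.

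Female Wistar rats, 8 weeks old, were contused at thoracic level 9 by a 10 g weight that fell 12.5 mm (Mild), 25 mm (Moderate) or 50 mm (Severe). Sham rats had the laminectomy alone. Spinal cord, 10 mm around the lesion, was taken after 7 days and dissociated with enzymes, and each of the 4 groups had 2 libraries made with a 10x 3′ kit. The study describes 8 sequenced cords, and the labels do not tie a library to an animal, so p-values measure the spread between libraries, which may be technical. The libraries held between 31482153 UMIs (Sham 2) and 131045446 UMIs (Severe 2), and the members between 28711 UMIs (Sham 2, 5 cells) and 5302789 UMIs (Mild 1, 693 cells). A member had a median of 6740 UMIs and 1960 genes, with 4.19% mitochondrial UMIs.

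Libraries and members that stood apart were counted before any comparison. In Sham 1, 3152 of the 9234 kept cells were neutrophil-type (at least 12% of UMIs from S100a8 and S100a9), against 1 cell in Sham 2 and between 6 and 70 in the injured libraries. Its members carried S100a9 at 9794 CPM (UMIs of a gene scaled to a common total) and the endothelial gene Cldn5 at 649. In the 6 injured libraries S100a9 averaged 671 CPM and Cldn5 was at most 24.1. Of all members, 174 (8.73%) had fewer than 10 Tyrobp UMIs per 10000 UMIs. Of these 174, 172 also held at least 10 UMIs of 13 oligodendrocyte precursor genes, 20 of myelin genes or 5 of endothelial genes. So did 35 of the other 1820 members (1.92%). These limits are raw counts, and the low-Tyrobp cells were deeper, with a median of 13935.5 UMIs against 6512.5. Few members lay near the limit of 10 Tyrobp UMIs per 10000, 40 with 5 to 10 and 13 with 10 to 15. The low-Tyrobp cells made up 33.3% of the members in Sham 1, 1.59% and 11.3% in the Mild libraries, 6.96% and 19.7% in the Moderate libraries, and 1.56% and 14.5% in the Severe libraries. Results are given for all members and for the 1820 Tyrobp-high members, a limit chosen after the values were seen. No more than 40 cell barcodes were shared by any pair of libraries, the smaller of which held 9771 cells, and 1 member barcode occurred in 2 libraries.

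The gate admits cells through any of its 3 genes. Fn1 was detected in 87.8% of members, Vcan in 76.3% and Fcnb in 64.4%, and 45.5% carried all 3. The mix differed between libraries of 1 grade. All 3 genes were present in 60.8% and 46.4% of Mild members and in 34.8% and 34.9% of Moderate members, but in 57.8% of the members of Severe 1 and 21.8% of those of Severe 2. At the edge of the gate, 100 members had exactly 5 UMIs of the 3 genes and 152 otherwise eligible cells had 4. At the Fabp4 limit, 509 members had 1 Fabp4 UMI and 293 otherwise eligible cells had 2. In all, 3134 otherwise eligible cells were left out for 2 or more Fabp4 UMIs, more than the number of members, against 224 for C1q, so the share of members depends on that limit. A further boundary at C1q was sparse, with 13 cells at 9 UMIs and 13 at 10.

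The share of members was higher in the Mild and Moderate libraries than in the Sham and Severe libraries. Members were 9.24% (95% Wilson interval 8.61 to 9.92) and 4.08% (3.68 to 4.52) of kept cells in the Mild libraries. They were 4.63% (4.25 to 5.04) and 3.35% (2.94 to 3.81) in the Moderate libraries. In the Severe libraries they were 1.60% (1.26 to 2.04) and 0.679% (0.522 to 0.883). In the Sham libraries they were 1.20% (0.999 to 1.45) and 0.189% (0.0807 to 0.442). The intervals cover counting error only. Every Mild and Moderate library lay above every Sham and Severe library, while Severe 2 lay below Sham 1. The first library was above the second in all 4 groups, and within each replicate number the order was Mild, Moderate, Severe and Sham. A share depends on the other cells recovered. Of the 9234 kept cells of Sham 1, 3152 were neutrophil-type, against 69 of 3991 in Severe 1, and shares without such cells were not computed. Group means were 0.696 ± 0.716% for Sham, 6.66 ± 3.65% for Mild, 3.99 ± 0.909% for Moderate and 1.14 ± 0.654% for Severe (SD, n = 2).

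The injured libraries averaged 3.24 percentage points more members than the Sham libraries, which did not pass an exact two-sided permutation test over 28 arrangements of the 8 libraries (p = 0.179, where the smallest possible is 0.0357). With the labels exchanged only within a replicate number, an alternative added after the data were seen, the exact permutation p was 0.188 over 16 arrangements, where the smallest possible is 0.0625. Shares of single grades were not tested against each other; a permutation of 2 against 2 libraries cannot give a p below 0.333. Among Tyrobp-high members the shares were 0.801% and 0.189% in Sham, 9.10% and 3.62% in Mild, 4.31% and 2.69% in Moderate, and 1.58% and 0.580% in Severe. The order of the groups was the same, and the difference from Sham was 3.15 points (exact permutation p = 0.214). Counts of cells do not tell whether fewer cells were present or fewer were recovered from the tissue. The deeper a cell, the more easily it reaches 5 UMIs, and with every cell thinned to 3000 UMIs the group means were 0.843%, 8.25%, 3.89% and 1.75% from Sham to Severe.

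**Figure D1:**
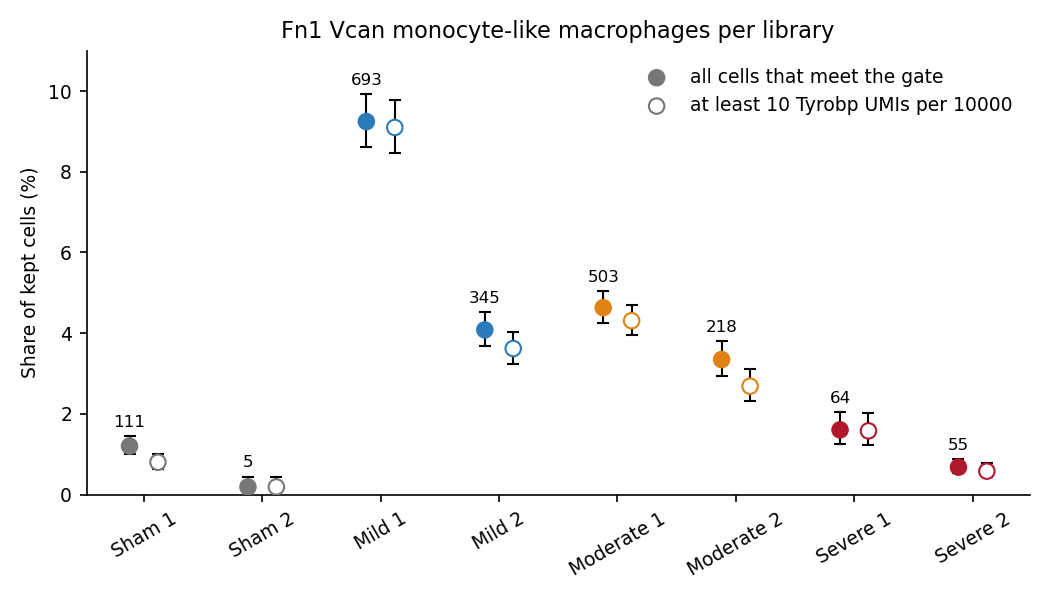
Share of kept cells that met the gate (filled) and of those with at least 10 Tyrobp UMIs per 10000 (open), in percent, for each of the 8 libraries, with 95% Wilson intervals and the number of members above each filled point. The filled points of the 4 Mild and Moderate libraries lie between 3.35% and 9.24%, and those of the Sham and Severe libraries at or below 1.60%.

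Markers were compared between populations of the same libraries. A 3′ library counts a transcript once whatever its length, so levels are given as CPM, the UMIs of a gene scaled to a common total of UMIs for the summed cells of a library. Microglia-type cells (2680 cells) had at least 10 C1q UMIs and 3 UMIs of P2ry12, Tmem119 and Cx3cr1. Fabp4 macrophages (4854 cells) had at least 5 Fabp4 UMIs. Oligodendrocyte-type cells (1810 cells) had at least 20 UMIs of myelin genes, Mbp and Mobp among them, and no Tyrobp. They give a rough guide to free RNA, for genes that they do not transcribe. Asking for no Tyrobp can set that guide low for myeloid genes. The median depth was 9648.5 UMIs in microglia-type cells, 13256 in Fabp4 macrophages and 10574 in oligodendrocyte-type cells.

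Fn1 stood at 1712 and 1122 CPM in the Mild libraries, 1308 and 1680 in Moderate members and 949 and 363 in Severe members (1189 ± 505, SD, n = 6). Vcan stood at 625, 695, 764, 1136, 617 and 152 in the same order (665 ± 316). Fcnb stood at 1321, 1290, 816, 342, 1535 and 1246 (1092 ± 436). Severe 2 was the lowest library for Fn1 and Vcan, and Moderate 2 the lowest for Fcnb. The gate fixed these 3 genes in members, and the choice of microglia-type cells kept them low there. They were also detected in Fabp4 macrophages, at 420.4, 96.1 and 209 CPM.

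S100a4 and S100a6 were not part of the gate. S100a4 stood at 1999 and 1402 in the Mild libraries, 1692 and 1305 in Moderate members, and 2332 and 809 in Severe members (1590 ± 539, n = 6), against a mean of 216 in microglia-type cells, 1182 in Fabp4 macrophages and 31.3 in oligodendrocyte-type cells. S100a6 stood at 3743, 2471, 1789, 1186, 4356 and 1307 (2475 ± 1315), against 30.4, 777 and 135. Both genes were highest in Severe 1, and S100a4 was lowest in Severe 2. For S100a4 the Severe pair alone spanned the lowest and the highest of the 6 libraries. With each member thinned to 1000 UMIs, 68.7 ± 13.2% carried a UMI of S100a4 and 65.5 ± 17.1% one of S100a6 (SD over 6 libraries), against 3.19% and 5.33% of thinned oligodendrocyte-type cells. Unthinned shares were 91.1% and 85.8%.

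**Figure D2:**
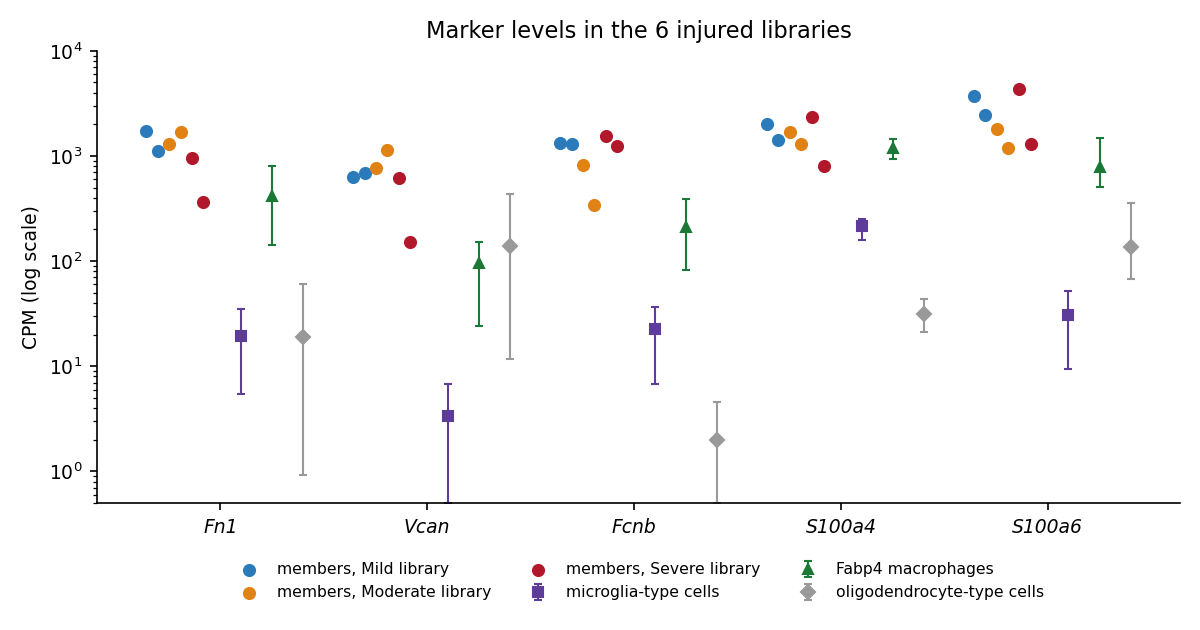
Levels of the 5 markers in CPM (log axis) in the 6 injured libraries. Fn1, Vcan and Fcnb were part of the choice of members and of microglia-type cells. Each coloured circle is the members of 1 library, in the order Mild 1 to Severe 2 from left to right, and the other symbols are means over the 6 libraries with bars from the lowest to the highest, drawn to the axis where the lowest is 0. S100a6 spans 1186 to 4356 in members and averages 30.4 in microglia-type cells.

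S100a4 and S100a6 lie in the same S100 gene cluster, with S100a5 between them, and the starts used for their promoters are 10008 bases apart on chromosome 2 of the RefSeq assembly GRCr8. The 250 bases before each start, and those of Fcnb, are shown for the pair of markers outside the gate and for the myeloid lectin inside it, and those of Fn1 and Vcan are not shown. Capitals mark TATAA, searched on both strands (reverse complement TTATA), a core promoter element that lies shortly before the start of many inducible genes.
S100a4 (chr2:178388279-178388528, plus strand): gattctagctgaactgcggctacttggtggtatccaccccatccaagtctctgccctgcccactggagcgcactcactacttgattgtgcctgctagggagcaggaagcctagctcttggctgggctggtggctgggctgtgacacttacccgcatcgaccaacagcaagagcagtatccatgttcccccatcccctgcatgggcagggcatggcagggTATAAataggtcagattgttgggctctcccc
S100a6 (chr2:178398287-178398536, plus strand): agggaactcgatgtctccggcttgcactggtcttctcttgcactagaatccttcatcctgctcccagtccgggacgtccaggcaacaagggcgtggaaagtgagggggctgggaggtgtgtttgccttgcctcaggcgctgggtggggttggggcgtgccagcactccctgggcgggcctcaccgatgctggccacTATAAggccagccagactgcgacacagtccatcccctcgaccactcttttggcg
Fcnb (chr3:31800189-31800438, minus strand): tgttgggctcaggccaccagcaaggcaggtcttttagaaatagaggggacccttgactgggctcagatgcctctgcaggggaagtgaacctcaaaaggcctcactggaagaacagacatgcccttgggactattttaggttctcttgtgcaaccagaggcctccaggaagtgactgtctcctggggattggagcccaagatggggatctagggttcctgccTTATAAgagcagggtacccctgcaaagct
The letters begin 31 bases before the S100a4 start, 54 before the S100a6 start and 28 before the Fcnb start, where both strands match in an overlap. They occur in 24.0% of all 33469 RefSeq promoters of this length. The letters GAGGAA, a form of the site bound by the myeloid factor PU.1, occur in 23.3% of promoters. TGACTCA, bound by AP-1, occurs in 4.05%. Neither was found in these 3 windows on either strand, and other forms of these sites were not searched for. A match is a description of letters and not of a bound site.

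Members carried monocyte markers, with lower levels of several markers of microglia. Of 20 monocyte markers, 18 were in the files (Ccr2 and Plac8 were not analysed here), and between 15 and 17 were detected in each injured library. Their summed level was 9558, 8685, 11482, 7797, 20720 and 13226 CPM from Mild 1 to Severe 2, against 2220 to 4435 in microglia-type cells, 4504 to 6749 in Fabp4 macrophages and up to 31160 in neutrophil-type cells. Most of each sum was Lyz2, lysozyme (8279 of 9558 in Mild 1). Lyz2 averaged 10601 ± 4516 CPM in members, against 2708 in microglia-type cells and 5327 in Fabp4 macrophages. Next came Cd14, the endotoxin co-receptor (426 ± 201, below the 502 of microglia-type cells), and Cd44, the hyaluronan receptor (245 ± 135, against 37.4). Ifitm6, named after its values were seen, was at 0 in all 6 injured libraries.

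Between 7 and 12 of the 12 microglia identity genes were detected in members of each injured library, summing to 544 to 1025 CPM. Tmem119, a marker of resident microglia, stood at 1.32 ± 1.14 CPM and Cx3cr1, the fractalkine receptor, at 22.5 ± 12.8. Both genes helped to choose the microglia-type cells, so their higher levels there (112 and 212) follow from that choice. Microglial genes that macrophages share were present, with Trem2 at 423 ± 198 and Csf1r at 204 ± 93.1. Among border macrophage markers Pf4 stood at 310.1 ± 172 and Folr2 at 297 ± 62.9, while Cd163, named after its values were seen, was at 0.229 ± 0.284. Dendritic cell markers were led by Cst3 (706 ± 159, below the 4001 of oligodendrocyte-type cells) and Irf8 (51.0 ± 16.9), and Ccr7, also named after its values were seen, was at 0 in the 8 libraries. The summed monocyte markers were higher in members than in Fabp4 macrophages in each of the 6 injured libraries, a sum led by Lyz2. Entry from the blood was not measured.

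Markers of other cells were present at levels that varied by library. The 12 neutrophil markers summed to 1139, 3896, 389, 835, 2062 and 571 CPM in the injured libraries and to 14549 in Sham 1, led by S100a9 in Sham 1, both Mild libraries and Severe 1 and by G0s2 in the others, and Ltf was at 0 in all 8. The 7 oligodendrocyte markers summed to 1583, 1750, 949, 1498, 853 and 331, and in Tyrobp-high members to 966, 601, 241, 177, 61.0 and 79.5. Endothelial markers summed to at most 36.0 in an injured library and to 1169 in Sham 1. The B cell list reached at most 1.48 CPM in an injured library, with Pax5 at 0 in all 8 libraries, and the T and NK cell list reached at most 51.2 CPM in an injured library. The part of these cells in the results below was not tested.

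Apart from genes named as ribosomal or mitochondrial, Apoe was the most abundant transcript of members in the injured libraries. Apoe, the lipid carrier, ranged from 13190 in Mild 1 to 93473 in Severe 2 (51014 ± 27082 CPM). It was at 802 in Sham 1 and 84985 in the 5 cells of Sham 2. Thinned to 1000 UMIs, 80.2% of members and 52.5% of oligodendrocyte-type cells had an Apoe UMI, while its level in oligodendrocyte-type cells was 877 CPM. Fth1, the ferritin heavy chain (21104 ± 4294), Spp1, osteopontin (12884 ± 4968), Tmsb4x, which binds actin monomers (12587 ± 2010), Lyz2, Ftl1, the ferritin light chain (9294 ± 6504), and Vim, vimentin (8111 ± 1870), came next among genes with a symbol other than an accession number. Prdx5, a peroxiredoxin (5273 ± 2088), Ctsb, cathepsin B (4245 ± 1145), and Slpi, an inhibitor of neutrophil elastase (4012 ± 1933), were also among the 20 highest.

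Of the functional lists, those of lipid handling, iron and matrix held the most abundant transcripts, Apoe, Fth1 and Spp1. Further down, Gpnmb, a glycoprotein of lipid-loaded macrophages, averaged 3396 ± 801 CPM, Lgals3, galectin 3, 3195 ± 915, and Ldha, lactate dehydrogenase A, 2132 ± 792. Among chemokines Ccl2, which attracts monocytes, spanned 304 in Severe 2 to 3280 in Moderate 2 (1297 ± 1208), and Cxcl2, which attracts neutrophils, spanned 196 to 2502. Tgfb1 averaged 283 ± 115 and Hmox1, heme oxygenase, 819 ± 273. Timp2, an inhibitor of metalloproteinases, averaged 921 ± 248 and Plaur, the urokinase receptor, 119.9 ± 136. Class II transcripts were low, with Cd74 at 362 ± 161 and RT1-Da at 114 ± 60.6, although RT1-Db1 was limited by the gate. Interferon response genes were led by Ifi27 (451 ± 191).

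The 8 immune-related autophagy factors that the study followed were all detected in members. Ctsb was the highest, followed by the chaperones Hspa8 (1412 ± 525) and Hspa5 (732 ± 224). Cxcr4, the receptor for Cxcl12, averaged 353 ± 87.4, with 292 and 227 in the Mild libraries, 396 and 323 for Moderate and 432 and 450.2 for Severe. Microglia-type cells averaged 17.2 and Fabp4 macrophages 243. Vegfa, the endothelial growth factor, stood at 116 and 79.0, at 190.4 and 262, and at 407 and 138 in the same order, against 8.98 in microglia-type cells. Hdac1, a histone deacetylase, averaged 78.8, Eif2ak2, a kinase that senses double-stranded RNA, 18.2, and Birc5, survivin, 10.9. For both Cxcr4 and Vegfa the Severe libraries were above the Mild ones, but neither gene passed the test described below (adjusted p = 0.256 and 0.251 for Severe against Mild).

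Against microglia-type cells of the same library, members had the highest ratios for Slpi, S100a6 and S100a11, a further S100 protein. The ratio was taken in the 7 libraries with at least 20 cells of each population, as log2 of CPM plus 10, and it is a description, because both populations were cut from the same counts. Slpi was 6.11 ± 0.77 higher in members, S100a6 5.82 ± 1.04, S100a11 4.61 ± 0.67, Crip1, a small LIM protein, 4.22 ± 0.76, and Napsa, an aspartic peptidase, 4.15 ± 0.56 (log2, SD over 7 libraries, same sign in 7 of 7). Mgst1 and Mgst2, both microsomal glutathione transferases, were 3.76 and 3.67 higher, Hp, haptoglobin, 3.66, Cxcr4 3.44 and Thbd, thrombomodulin, 3.42. Lower in members were Ccl4, an inflammatory chemokine (-5.36 ± 1.77), Fcgr3a, an Fc receptor (-5.07), Anxa3 (-4.86), Tmem176a (-4.46), Cst3, cystatin C (-4.14), Ch25h, cholesterol 25-hydroxylase (-4.04), and Gpr84 (-3.87). Tmem119 (-3.35) was also lower, as the choice of the microglia-type cells fixed. Of 1583 genes with at least 100 CPM in the higher population, gate genes included, 73 were higher in members in all 7 libraries with a mean ratio of at least 2 log2 units, and 42 were lower by the same rule. Among Tyrobp-high members the counts were 85 and 48, of which 63 and 38 were shared with all members. Every gene named in this paragraph kept its sign in Tyrobp-high members. With the injured libraries alone, without Sham 1, the counts were 79 and 43, of which 70 and 40 were shared with the 7 libraries.

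Against Fabp4 macrophages the difference was smaller and part of it rested on the low-Tyrobp members. Of 1477 genes, gate genes included, 23 were higher in members in all 7 libraries with a mean ratio of at least 2 log2 units, and 6 were lower by the same rule. Of the 15 highest named ratios, 10 fell to between -0.33 and 0.13 in Tyrobp-high members, led by the alarmin Il33 (3.28 against -0.19) and Dclk1 (2.87 against -0.28). These 10 genes were transcribed in oligodendrocyte-type cells, Il33 at 305 and Cryab at 2171 CPM. The other 5 kept their size. Il1b, interleukin 1 beta, was 2.46 ± 1.12 higher in all members and 2.79 ± 1.01 in Tyrobp-high members, Chi3l1, a chitinase-like protein, 2.36 and 2.69, Lrg1 2.17 and 2.40, and Mal 2.20 and 2.07, and G0s2, an inhibitor of lipolysis, was 2.28 ± 0.99 higher in all members. Of these, Mal was also transcribed in oligodendrocyte-type cells (1840 CPM). Lower in members were Spp1 (-2.08 ± 1.84, and -1.40 ± 0.38 without Sham 1), Fcgr3a (-2.02, and -1.42 without Sham 1), Igf1, a growth factor (-1.89, and -1.69 in Tyrobp-high members), Trem2 (-1.85, and -1.34 without Sham 1), Ctsk, cathepsin K (-1.76), Fabp5, a fatty acid-binding protein (-1.20), and Hmox1 (-1.20, and -0.84 in Tyrobp-high members). With the injured libraries alone the counts were 17 and 4.

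**Figure D3:**
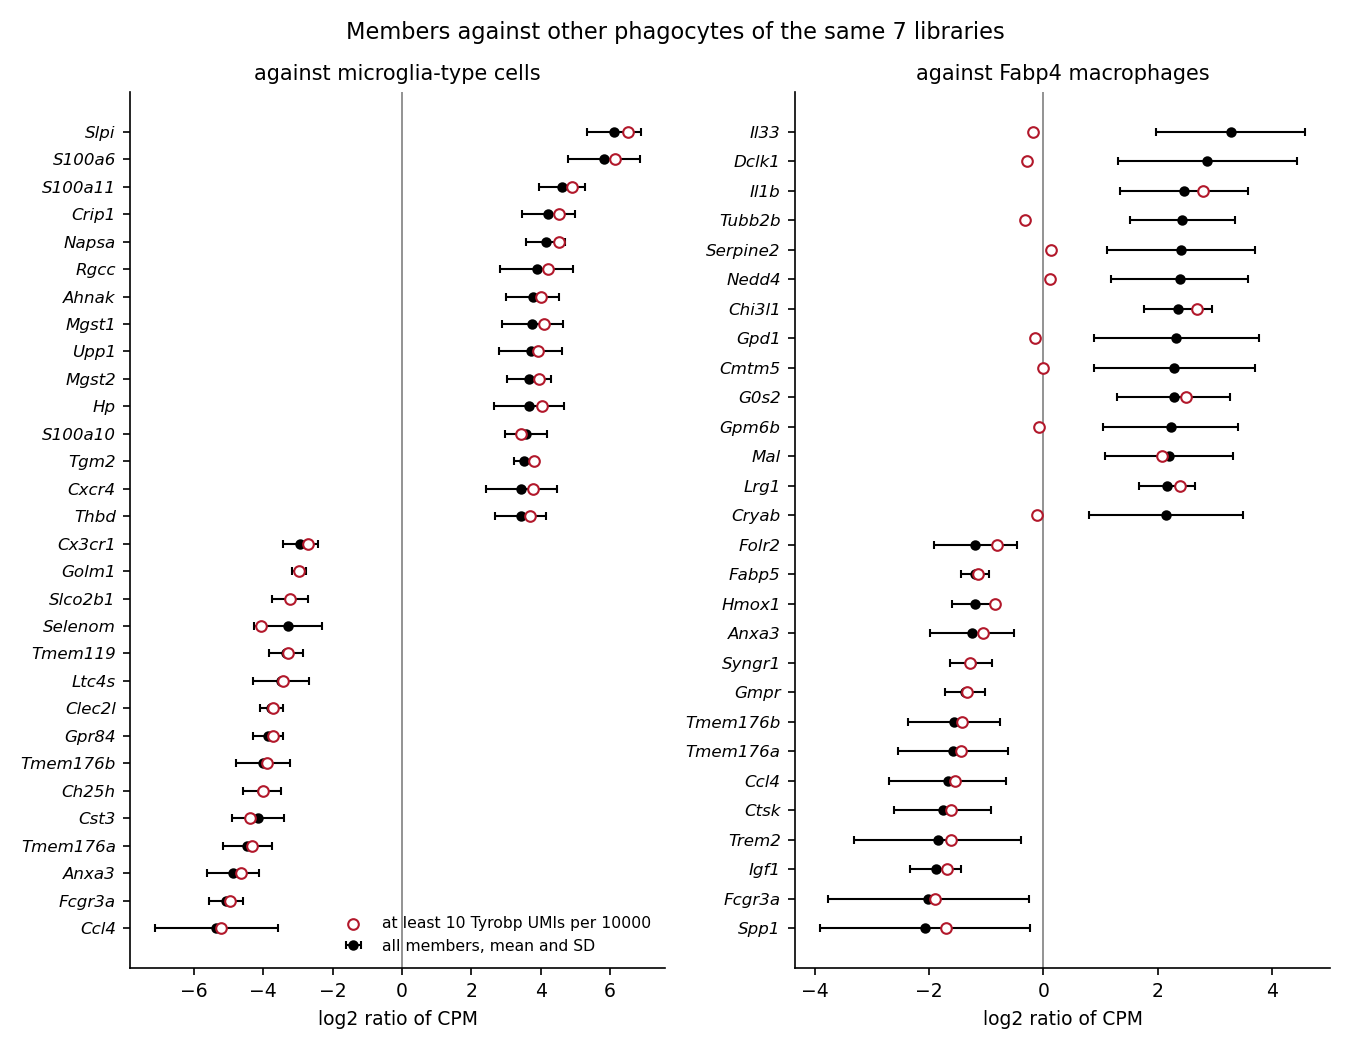
Mean log2 ratio of CPM, members over microglia-type cells (left) and over Fabp4 macrophages (right), for the named genes with the highest and the lowest ratios in each. Black points are all members with SD over 7 libraries, and open red points are Tyrobp-high members. The red points stay with the black ones on the left, and on the right all but 5 of the upper genes drop to near 0.

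Members of the 3 injury grades were compared with the edgeR quasi-likelihood test on UMIs summed per library, over 9127 genes, with Benjamini-Hochberg adjustment at 0.05. Sham did not enter, since Sham 2 held 5 members. No gene was called between Moderate and Mild (0% of genes tested), although 760 genes had an unadjusted p under 0.05 and DESeq2 called 34. With the replicate number as a block 4 genes were called. Between Severe and Mild 34 genes were called (0.373% of those tested), 20 higher (0.219%) and 14 lower (0.153%) in Severe. Between Severe and Moderate 22 were called (0.241%), 11 higher (0.121%) and 11 lower (0.121%), and 38 with the replicate block. Scaled by library size alone, 12 were higher and 17 lower against Mild, and 9 higher and 22 lower against Moderate. Leaving out either Mild library took the Severe against Mild count to 0, and leaving out either Moderate library took the Severe against Moderate count to 0, with the lone library assumed to vary like the other grades. Without Severe 1 or Severe 2 genes were still called between Severe and Mild, but many of the 34 were not among them, and more were higher and fewer lower. Fold changes of the genes named below kept their direction, but not all were equally steady. Without 1 of the Mild libraries, Rps19 was 5.27 and 5.29 log2 higher in Severe, Ybx1-ps3 3.71 and 2.49, and Hspa1b 6.09 and 7.54.

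Most of the called genes shifted in the Severe libraries as a whole. Of the 34 genes called between Severe and Mild, 27 moved by at least 1 log2 unit in the same direction in oligodendrocyte-type cells, in microglia-type cells and in Fabp4 macrophages, and so did 19 of the 22 called between Severe and Moderate. Rps19, a protein of the small ribosomal subunit, stood at 32.8 and 35.6 CPM in Mild members, 66.9 and 63.3 in Moderate members and 1212 and 1006 in Severe members (log2 fold change of Severe against Mild 5.29 ± 0.34 SE, adjusted p = 0.0043). In oligodendrocyte-type cells it stood at 18.6 and 18.9, 27.0 and 29.6, and 414 and 434. Rps6 (4.50), the glycolytic enzyme Tpi1 (3.06), the proteasome maturation factor Pomp (3.39), Ppial4d (3.34) and Ybx1-ps3 (2.98) were higher in Severe, and Sumo4 lower (-4.53), with the same shift in all 3 other populations. Grcc10 (3.31) and H2afj (2.32), called higher against Moderate, did likewise. Of 16 alternatives, the call against Mild was lost in 9 for Tpi1, 8 for Ybx1-ps3, 7 for Pomp and 6 for Sumo4. It was lost in 4 for Ppial4d and in 2 each for Rps6 and Rps19. The calls of Grcc10 and H2afj against Moderate were each lost in 6. Of the calls, 18 of 34 and 13 of 22 had symbols that are only accession numbers. Transcripts of ribosomal and housekeeping genes can match near-identical copies, so these counts are uncertain. In the Sham libraries Rps19 in oligodendrocyte-type cells was at 41.7 and 52.2, far below the Severe ones. Ppial4d did not behave so in Sham 2. In members it was at 76.1 in Sham 1, at 209 in the 5 cells of Sham 2, and at 128 and 172 in Severe. Other measures also differed between the Severe libraries and the Mild and Moderate ones. The median mitochondrial share of oligodendrocyte-type cells was 3.27% and 2.80% in the Severe libraries and between 5.23% and 7.13% in the Mild and Moderate ones, and that of Fabp4 macrophages 2.20% and 2.11% against 4.13% to 5.34%. In members it was 3.05% and 2.54% against 3.77% to 4.83%, and their median depth was 8697 and 15241 UMIs against 5960 to 7072. These measures were not particular to Severe. In Sham 1 the mitochondrial share was 2.07% in oligodendrocyte-type cells, 2.49% in Fabp4 macrophages and 2.41% in members, whose median depth was 14693 UMIs. In Sham 2 the shares were 6.59%, 5.82% and 6.97%, and the depth was 3665 UMIs. All 8 files list the same genes and name the same version of the counting software in their headers. Whether the Severe libraries were sequenced or aligned in another way was not tested, and library and grade cannot be told apart here.

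**Figure D4:**
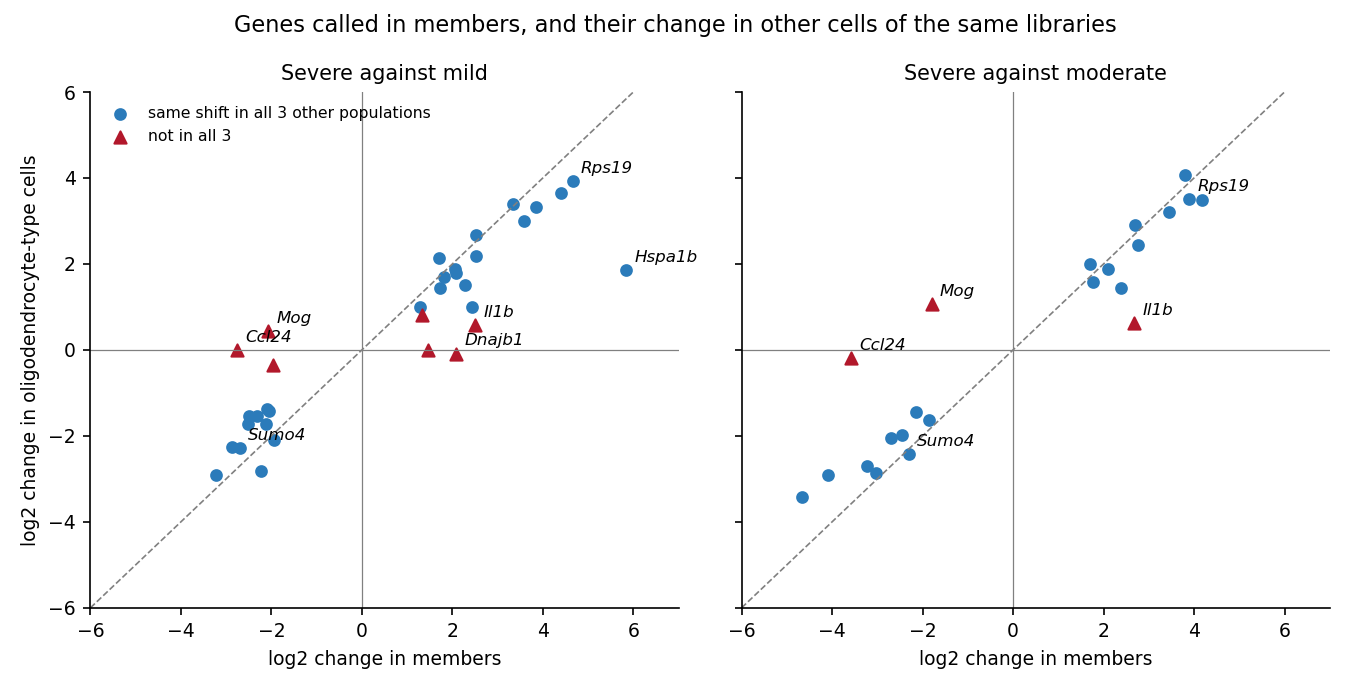
Genes called in members between Severe and Mild (left) and between Severe and Moderate (right), by their log2 change in members (horizontal) and in oligodendrocyte-type cells of the same libraries (vertical), with 10 CPM added. Blue circles moved by at least 1 log2 unit the same way in all 3 other populations (27 of 34 and 19 of 22), and red triangles did not. The dashed line marks equal change. Hspa1b, at 5.84 in members and 1.85 in oligodendrocyte-type cells, is a blue circle that lies far from it.

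Il1b and Ccl24 were among the few called genes that did not move in all of the other populations. Il1b stood at 202 and 159 CPM in Mild members, 112 and 206 in Moderate members, and 1302 and 827 in Severe members. The Severe libraries were above the 4 others, and the change was 2.82 ± 0.40 against Mild (adjusted p = 0.0482) and 3.15 ± 0.40 against Moderate (adjusted p = 0.0378). In Tyrobp-high members it was 2.88 (adjusted p = 0.0105) and 2.85 (adjusted p = 0.0161). Both calls were near the threshold. Against Mild the call was lost in 9 of 16 alternatives, among them removal of Scrublet doublets (2.67, adjusted p = 0.0593), and against Moderate in 8 of 16. The change itself stayed between 2.45 and 3.12 against Mild and between 2.74 and 3.51 against Moderate. Il1b also moved in microglia-type cells, from 174, 231, 298 and 335 to 2090 and 2345. In Fabp4 macrophages the grades overlapped, at 39.7, 11.6, 36.1 and 61.8 in the Mild and Moderate libraries and 48.9 and 87.2 in the Severe ones. In oligodendrocyte-type cells it was at most 6.98 in the Mild and Moderate libraries and at 6.33 and 23.2 in the Severe ones.

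Ccl24, an eosinophil-attracting chemokine of alternatively activated macrophages, ran the other way. It stood at 118 and 85.6 in Mild members, 112 and 263 in Moderate members, and 7.38 and 5.57 in Severe members, with no overlap of the Severe libraries with the rest. The change was -3.73 ± 0.53 against Mild (adjusted p = 0.0482) and -4.45 ± 0.54 against Moderate (adjusted p = 0.0326). The call was lost in 9 of 16 alternatives against Mild, among them removal of Scrublet doublets (-3.69, adjusted p = 0.0528), and in 5 of 16 against Moderate. The change itself stayed between -3.99 and -3.42 against Mild and between -4.86 and -3.86 against Moderate. Fabp4 macrophages carried 49.9, 11.7, 18.7 and 33.1 in the Mild and Moderate libraries and 4.93 and 9.27 in the Severe ones, and microglia-type cells at most 2.69.

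Hspa1b, an inducible heat shock protein, stood at 11.7 and 34.2 in Mild members, 298 and 1227 in Moderate members and 2595 and 1175 in Severe members (6.67 ± 0.90 for Severe against Mild, adjusted p = 0.0423). This call was lost in 6 of 16 alternatives, among them scaling by library size alone (6.38, adjusted p = 0.0562). The change itself stayed between 5.97 and 7.79. Hspa1b was at 4110 in Sham 1 members and at 0 in those of Sham 2. Dnajb1, its co-chaperone, stood at 51.7 and 47.5, 169.6 and 244, and 245 and 237 (2.54 ± 0.29, adjusted p = 0.0253). In Tyrobp-high members both were also called between Moderate and Mild, Hspa1b at 5.88 (adjusted p = 0.0368) and Dnajb1 at 2.40 (adjusted p = 0.0421). Heat shock genes can be induced while tissue is dissociated. Hspa1b moved from 99.8, 115, 134 and 283 to 549 and 276 in oligodendrocyte-type cells and from 21.3, 7.64, 251 and 582 to 840.3 and 1467 in Fabp4 macrophages. Dnajb1 in oligodendrocyte-type cells stood at 88.1, 91.0, 40.5, 78.2, 112 and 54.7, with the grades overlapping, but it moved in the other phagocytes, from at most 48.7 in Mild to 105 and 391 in Severe Fabp4 macrophages and from 69.8 and 61.6 to 269.8 and 431 in microglia-type cells. The part of tissue handling was not tested.

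**Figure D5:**
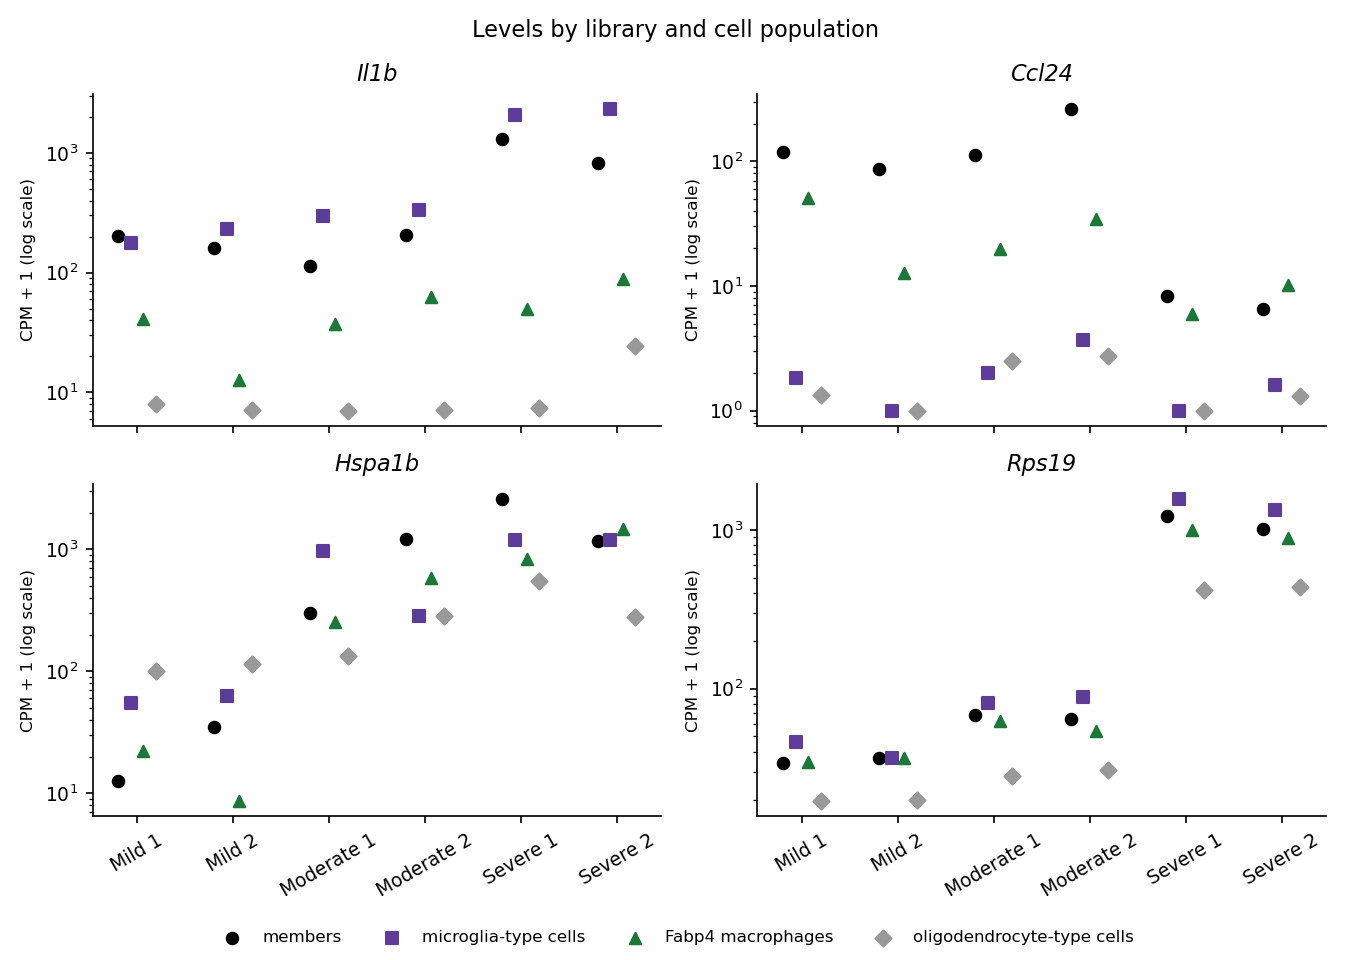
CPM plus 1 (log axis) of Il1b, Ccl24, Hspa1b and Rps19 in each of the 6 injured libraries, for members and for microglia-type cells, Fabp4 macrophages and oligodendrocyte-type cells. Il1b in Severe members reaches 1302 and 827, Ccl24 falls to 7.38 and 5.57, and Rps19 rises in all 4 populations.

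The grades were then compared on the ratio of members to Fabp4 macrophages within each library, an alternative chosen after the shift was seen, which removes what both populations share and leaves 3 residual degrees of freedom. It called 0 genes (0% of 10156) between Moderate and Mild, 2 (0.0197%) between Severe and Mild and 1 (0.00985%) between Severe and Moderate, and none of the genes called above was among them. Relative to oligodendrocyte-type cells 6 (0.0573%), 10 (0.0955%) and 8 (0.0764%) of 10474 genes were called in the same order of comparisons. Of these 10, Hspa1b (4.73, adjusted p = 0.00762), Dnajb1 (2.66, adjusted p = 0.0317) and the myelin genes Mog and Hapln2 had also been called on the level, and of the 8, Mog alone. Between Moderate and Mild the 6 were Hspa1b, Dnajb1 and the immediate early genes Fosb, Jun, Egr1 and Ier2, all higher in Moderate. Hapln2, Egr1 and Ier2 were named after their values were seen. Slpi was lower in Severe members relative to Fabp4 macrophages (-1.65 ± 0.19 log2 against Mild, adjusted p = 0.0383). Slpi stood at 6904 and 4927 CPM in Mild members, 3256 and 4678 in Moderate members and 3038 and 1269 in Severe members, and at 1438 and 839.9, 903 and 995, and 1919 and 675 in Fabp4 macrophages. Its level alone was not called (-1.19, adjusted p = 0.358). The other gene called on the ratio to Fabp4 macrophages was S100b, a glial protein, relatively higher in Severe against Mild (3.13, adjusted p = 0.0032) and against Moderate (3.15, adjusted p = 0.00311). S100b in all members was at 135 and 157 CPM in Mild and 82.7 and 219.5 in Severe, in Tyrobp-high members it went from 81.3 and 53.4 to 0 and 5.89, and in Fabp4 macrophages from 81.7 and 64.7 to 4.93 and 11.5. On the same ratio Il1b changed by 0.89 (adjusted p = 0.872) against Mild and 2.33 (adjusted p = 0.392) against Moderate, Ccl24 by -2.26 (adjusted p = 0.871) and -2.96 (adjusted p = 0.535), and Hspa1b by -0.01 against Mild (adjusted p = 1). Against microglia-type cells of the same libraries no gene was called in any comparison (0%), with 261, 432 and 404 genes at an unadjusted p under 0.05.

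By function, few list members passed the test of levels over all members, in which 0.373% of all genes were called between Severe and Mild and 0.241% between Severe and Moderate, and none passed between Moderate and Mild. With 0 to 2 calls a list, these counts say little about any list. Of 16 tested genes for inflammatory cytokines and sensors, Il1b alone rose in Severe in both comparisons, with list medians of 0.50 against Mild and 0.95 against Moderate beside -0.04 over all genes in both. Of 15 tested chemokines, Ccl24 alone was called in both, with list medians of 0.52 against Mild and -0.19 against Moderate. Of 12 immediate early and heat shock genes, Hspa1b and Dnajb1 rose against Mild. Of 18 genes of hypoxia and glycolysis, Tpi1 rose against Mild, and of 7 oligodendrocyte markers Mog, a myelin glycoprotein, was lower in both, at 0 in both Severe libraries and between 22.6 and 33.8 in the others. In Tyrobp-high members Mog was not called against Moderate (adjusted p = 0.352). None of 16 monocyte markers, 14 matrix proteins, 12 matrix-degrading enzymes and inhibitors, 16 adhesion and trafficking receptors, 9 S100 genes, 14 interferon response genes, 13 genes of alternative activation and repair, 17 of lipid handling, 7 of iron and heme, 6 of MHC class II, 9 of complement, 12 of the lysosome or 8 autophagy factors was called in the 3 comparisons of levels over all members. Some of these lists still had medians away from the -0.04 of all genes, and the medians were not tested. Monocyte markers stood at 0.66 for Severe against Mild and 0.59 against Moderate, and MHC class II at 0.92 and 0.87. Matrix-degrading enzymes and inhibitors stood at -0.12 and -0.71. That a gene was not called does not show equal levels, since a grade had 2 libraries.

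Restricting to Tyrobp-high members raised the number of calls. Over 7767 genes, 19 (0.245%) were called between Moderate and Mild, 151 (1.94%) between Severe and Mild and 56 (0.721%) between Severe and Moderate. Within the lists, Plau, the urokinase, Adm, adrenomedullin, Jun, Hspa1b and Dnajb1 rose from Mild to Moderate. Samhd1, Ccl3, Nfkbia, Ptgs2, Ftl1 and Tpi1, with Il1b and both heat shock genes, rose in Severe against Mild, while Ccl24, S100b and 6 of 7 oligodendrocyte markers fell. Il1b and Ftl1 rose and Ccl24, Msr1, a scavenger receptor, and Fosb fell in Severe against Moderate. These counts moved with single libraries. Without 1 library the 19 became 1 to 82, the 151 became 30 to 256 and the 56 became 26 to 74, with 1 and 2 for Moderate against Mild and 31 and 30 for Severe against Mild when a Mild library was left out. The genes called here were not counted in other cells. Ftl1 stood at 5150, 5617, 5611 and 4259 CPM in Mild and Moderate members and at 15961 and 19165 in Severe members. It moved with the Severe libraries as a whole, from at most 1546 to 5602 and 5517 in oligodendrocyte-type cells, from at most 4008 to 14651 and 11033 in microglia-type cells and from at most 8078 to 30235 and 26282 in Fabp4 macrophages.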

How the data were processed

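In all, 8 single-cell libraries of rat spinal cord were analysed. The authors deposited raw UMI counts per gene and cell barcode (32623 genes), aligned to Rnor_6.0; the deposited file headers name Cell Ranger 5.0.1, the study's methods 6.0.1. Groups came from the sample titles. Members and gene lists were chosen with earlier results of these data known. UMIs were summed per library and tested with edgeR 4.0.16 (TMM scaling, filterByExpr, groups as the only term, all 3 injured grades in 1 fit, libraries with at least 20 members), with DESeq2 1.42.0 as an alternative. The planned comparison of injured with sham members was not run, because 1 sham library had under 20 members. Thinning and Scrublet used scanpy 1.11.5 and Python 3.11.15. Doublets were not removed from the main set, and leaving out Scrublet calls was an alternative. Named genes were the gate and marker genes, the 20 most abundant, the 3 most abundant and any called of each list, and the largest called changes between grades (up to 8 each way, at least 20 CPM, no overlap between groups, symbols other than accession numbers), with the 15 largest ratios each way against other populations. In simulated data for Severe against Mild (8731 genes), 82% of 4-fold and 4% of 2-fold increases were recovered. Of falls to 0.25 of the level 52% were recovered, and there were 0 false calls. All genes were drawn with the same spread and no shift of whole libraries, and the changed genes had at least 20 CPM. The simulation therefore does not measure how reliable the calls in the real counts are. Deviations of same-numbered libraries from their group means correlated at 0.266, 0.458 and 0.110, so a fit with the replicate number as a block was also made. The replicate numbers came from the sample titles, which do not say whether libraries of the same number belong together. Symbols absent from the files, such as Ccr2, Plac8, Nos2 and Chil3, were not analysed here. Some genes that met these rules are not reported here.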

Additional observations from a re-analysis of the deposited data

How the results depend on the processing

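The difference in share between injured and Sham libraries kept its direction under all 18 alternatives (2.17 to 4.10 points, exact permutation p from 0.179 to 0.429), and ranged from 2.17 to 3.89 with a library left out. Counts of genes called depended on the fit, and the values that follow are for Moderate against Mild, Severe against Mild and Severe against Moderate. Main counts were 0, 34 and 22. DESeq2 gave 34, 222 and 161, no low-count filter 167, 443 and 394, and Tyrobp-high members 19, 151 and 56. With only the 2 groups compared, Severe against Mild gave 8 and Severe against Moderate 0. With the Sham libraries in the fit, Moderate against Mild gave 2 and Severe against Moderate 47. Relative to Fabp4 macrophages both Severe comparisons gave 2 and 1, relative to microglia-type cells 0 and 0, and relative to oligodendrocyte-type cells the 3 counts were 6, 10 and 8. With a library left out the counts ranged from 0 to 0, from 0 to 47 and from 0 to 22. Without Moderate 1 and Moderate 2, Severe against Mild gave 7 and 11, and without Severe 2, Severe against Moderate gave 9. None of the genes named for the largest called changes (10 for Severe against Mild, 7 for Severe against Moderate) changed direction under its 16 alternatives, which do not include the ratios to other cells, though the adjusted p of Il1b reached 0.321 and that of Rps19 0.108 and 0.121 in the Severe comparisons with Mild and Moderate. The cause was not tested.

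The replicate block gave 4, 46 and 38 calls, and for the share a difference of 3.24 points (exact permutation p = 0.188). Members above Fabp4 macrophages numbered 14 in place of 23 genes among Tyrobp-high members, 9 of them shared. The share of members with an S100a4 UMI was 52.9% in place of 68.7% when cells were thinned to 500 UMIs. Under scaling by library size alone the median log2 change of all genes was -0.31 and -0.41 in the Severe comparisons, beside -0.04 in both under TMM. Severe members numbered 64 and 55 cells.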
